A study of Mus musculus with 9 samples.

Results

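The transcripts of 33 autosomal Ube2 genes were analysed in mouse oocytes of the growth phase, out of 28051 genes with a deposited level. The genes were taken by name, as all entries on chr1 to chr19 whose symbol begins with Ube2 and a further letter, with pseudogenes left out. Most of them encode ubiquitin conjugating enzymes, but Ube2v1 and Ube2v2 encode partners without the active cysteine, Ube2cbp encodes a ubiquitin ligase that binds such enzymes (also called Ube3d), and Ube2uos is an antisense RNA of Ube2u. Of the 33 genes, 26 passed the filter on low counts and were tested, and 7 did not. The names Ube2a and Ube2dnl1 (X-linked), Ube2d-ps and Ube2n-ps1 fell outside the rule.

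The oocytes came from females of 3 genotypes, XX, XO and XY, at 18 dpp. Each sample pooled 30 oocytes, 10 of 50–55 µm and 20 of 55–60 µm in diameter, with 3 samples per genotype. XX and XY females were littermates from B6.YTIR males crossed with B6 females, and XY females carried the Y chromosome named YTIR. XO females came from Paf carrier males, of a stock backcrossed from C3H/HeSnJ to B6, crossed with B6 females, and were therefore not littermates of either of the other groups. The labels give C57BL/6 as the strain of all 9 samples, and how many females gave oocytes to a pool is not given in the sources used here. Genotype cannot be told apart from the cross for XO oocytes.

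Ubiquitin is attached to proteins by a cascade. An activating enzyme (E1) loads ubiquitin onto the cysteine of a conjugating enzyme (E2), and a ligase (E3) brings the loaded E2 to its substrate. E2 enzymes set much of the outcome, since some place the first ubiquitin, some build K48 chains that send proteins to the proteasome, some build K63 chains used in signalling and DNA repair, and a few carry a relative such as NEDD8 in place of ubiquitin. In oocytes, the anaphase-promoting complex (APC/C) and its E2 enzymes control the exit from meiotic arrest.

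RNA was read by Smart-seq3, in which the 5′ fragment of a captured transcript carries a molecular tag (UMI), and 1 UMI counts 1 captured molecule. Each sample had 2130145 to 3157338 gene UMIs, and ERCC spike-ins made up 0.204 to 0.862% of all UMIs. Levels are given as normalized CPM, the UMI count scaled by the factor that the authors took from the spike-ins (ERCC factors). The factors do not use the amount of spike-in per oocyte RNA, and in bulk pools fewer cells of a type and less RNA per cell cannot be told apart. Of the oocyte markers, 10 of 10 were found, and their summed normalized CPM ranged from 26639 to 27875 in the XX samples, from 18229 to 37642 in the XO samples and from 19722 to 26782 in the XY samples. Of 10 granulosa markers 6 were found, with sums of 46.6 to 90.9 normalized CPM over all samples, of which Nr5a2, Cyp19a1 and Kitl held nearly all, and Inha and Amhr2 were at 0 in most samples. Kitl was called higher in XX than in XO, with a log2 fold change of 1.09 ± 0.31 (SE, adjusted p = 0.203), or 1.54 ± 0.29 (SE, adjusted p = 0.216) with TMM and 1.43 ± 0.39 (SE, adjusted p = 0.0228) with DESeq2, and its part in the differences of Ube2 genes was not tested. Of 6 markers of theca and stroma 4 were found, with sums of 0.565 to 2.79. Of 6 markers of blood and vessels 3 were found, with sums of 16.1 to 132, nearly all from Pecam1. The library XO1 stood apart from XO2 and XO3, and it held the lowest oocyte marker sum. The paper names XO2, beside XX1 and XY1, as less similar to the other replicates of its genotype. Whether that XO2 is the library named XO1 here was not tested. Therefore counts that involve XO oocytes are given with and without XO1. Among the oocyte markers, 3 of 10 (Zp1, Gdf9 and Nobox) were called lower in XX and in XY than in XO with both scalings. Of all genes, 16.7 and 8.24% were called so with the ERCC factors, and 6.02 and 3.68% with TMM. Without XO1, 5 and 7 of the markers were, beside 34.2 and 27.6% of all genes. The paper, by contrast, reports Gdf9 as not different among the genotypes at this size, by RNA-Seq and by qRT-PCR.

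The Ube2 genes spanned a wide range of levels. Together they took 56633 UMIs, of which the 5 genes with the most UMIs held 65.9% and the 10 with the most held 85.5%. Ube2w alone held 20.4%. The mean level of 23 genes was 10 normalized CPM or more, while that of 4 genes was under 1. When the level was divided by transcript length, Ube2w remained first with 346 normalized CPM per kb, followed by Ube2v2 with 253, Ube2k with 176, Ube2d3 with 167 and Ube2q2 with 108. Both scales shared 9 of the 10 genes with the highest level. Since 1 UMI counts 1 captured molecule, the order per kb is no check of abundance.

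**Figure D1:**
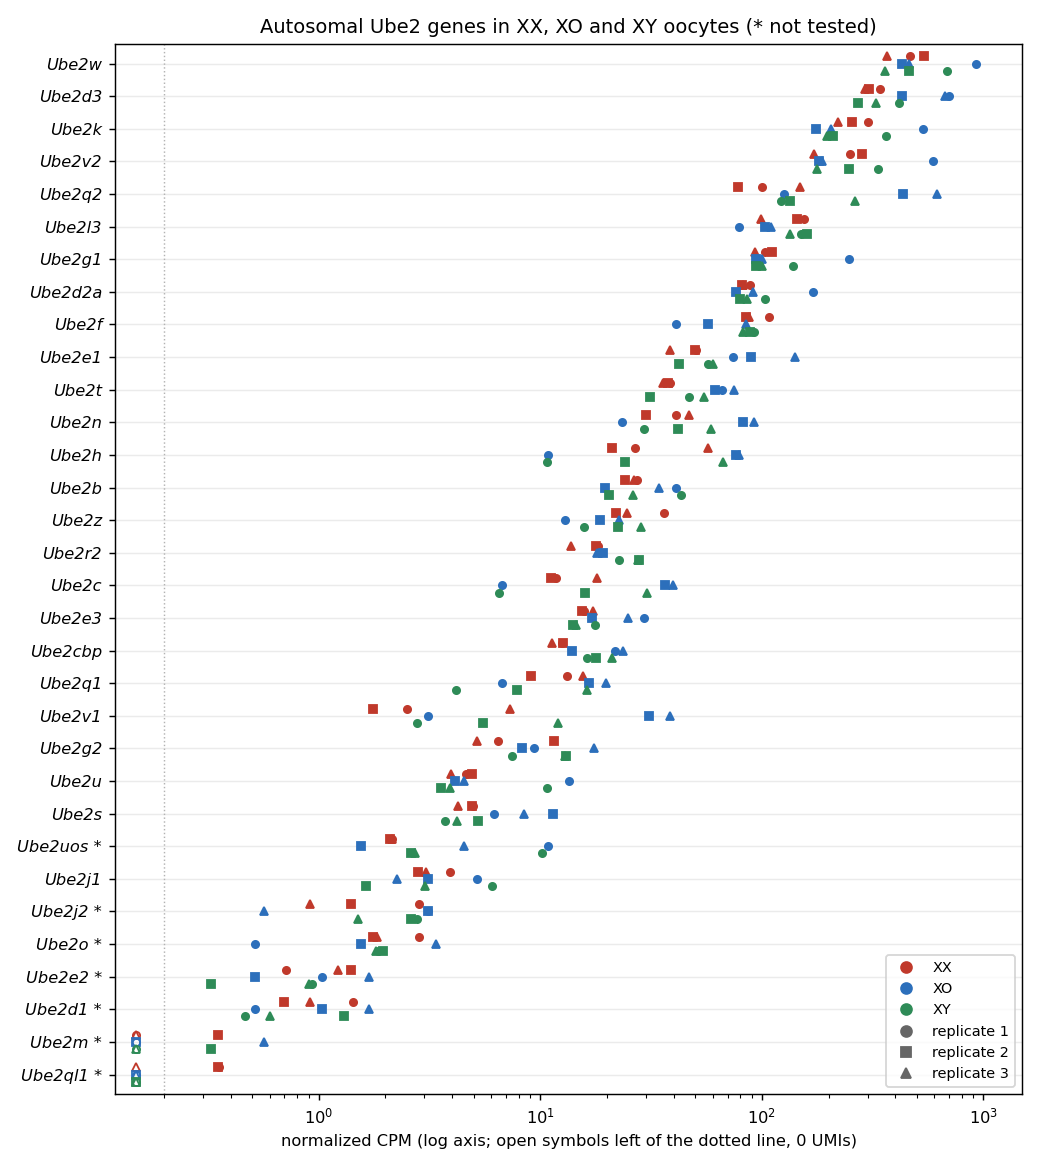
Level of the autosomal Ube2 genes in normalized CPM on a log axis, ordered by the mean over 9 samples, with 1 symbol per sample. Colours give the genotype and shapes the replicate number, asterisks mark the 7 genes that were not tested, and open symbols stand for samples with 0 UMIs. Levels span from Ube2w, with 361 to 923 normalized CPM, down to Ube2m and Ube2ql1, which had 3 and 2 UMIs in all.

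As a share of gene UMIs, the mean summed output of the family was alike among genotypes when XO1 was included. The 33 genes made up 0.256, 0.255 and 0.241% of gene UMIs in XX1, XX2 and XX3, 0.317, 0.216 and 0.228% in XO1, XO2 and XO3, and 0.277, 0.241 and 0.233% in XY1, XY2 and XY3. The XO and XY ranges both enclosed the XX range. XO1 was the highest of all samples, however, and XO2 and XO3 were below all XX and XY samples. The ratio of mean shares was 1.01 for XO over XX, which rested on XO1, and 0.997 for XY over XX. On the summed normalized CPM, the same ratios were 1.50 and 1.10. The sum over all genes differed in the same order, so that these ratios are not particular to the family. It was 802037 to 888533 in XX, 1181290 to 1422590 in XO and 864867 to 990044 in XY samples.

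The 3 genotypes were compared gene by gene with edgeR on the UMI counts. A gene was called at an unadjusted p under 0.05. The study used that threshold too, but with limma and with batch factors estimated from the data as covariates. Each log2 fold change is given with its SE and with the adjusted p of edgeR's quasi-likelihood test (Benjamini-Hochberg over all genes tested, 3 samples per genotype). The scaling matters for every direction given here. With the ERCC factors the median log2 fold change of all 10993 genes tested was -0.46 for XX minus XO, -0.19 for XX minus XY and -0.30 for XY minus XO. Hence all contrasts were also run with TMM factors from the genes, for which these medians were -0.03, -0.04 and -0.02, and with scaling to the total of spike-ins, for which they were 0.42, 0.49 and -0.11. With the spike-in totals 0 of the 26 Ube2 genes were called in any contrast, so that every call made with the ERCC factors was lost. Throughout, XX minus XO and XY minus XO share the 3 XO samples, and XX minus XO and XX minus XY share the 3 XX samples.

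Between XX and XO oocytes, 7 of the 26 genes tested were lower in XX (26.9%) and 0 were higher, while among all genes 16.7% were called lower and 1.40% higher. With DESeq2, 3 were higher and 5 lower, and the shares of all genes called by DESeq2 are not given here or below. With TMM, 3 were higher and 3 were lower in XX (11.5% each), beside 5.90 and 6.02% of all genes. Ube2e1, Ube2q2 and Ube2v1 were lower with both scalings. The median log2 fold change of the 26 genes was -0.54 with the ERCC factors and -0.12 with TMM, close to the medians of all genes. After Benjamini-Hochberg adjustment over all genes tested 0 of the 26 passed with either scaling, and the smallest adjusted p was 0.203 with the ERCC factors. Of all 10993 genes, 0 passed with the ERCC factors and 2 with TMM. With DESeq2, Ube2f passed the adjustment, beside 178 of all genes. With limma and 2 sva variables (factors estimated from the data) Ube2f and Ube2q2 did, beside 345 of all genes. In normalized CPM, samples did not overlap in 5 genes that were lower in XX (Ube2d3, Ube2e1, Ube2t, Ube2cbp and Ube2s; 19.2%), beside 13.6% of all genes. They did not overlap in 0 genes that were higher, beside 2.79% of all genes. With TMM-scaled CPM, Ube2cbp and Ube2s overlapped, while all XX samples of Ube2f, Ube2l3 and Ube2z were above all XO samples. The shares of all genes are not given for that scale.

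The library XO1 weighed on this count. Without XO1, 9 genes were lower in XX than in XO and 0 were higher, while 34.2% of all genes were called lower and 2.77% higher. Of the lower genes, 6 also passed the adjustment (23.1%), beside 24.2% of all genes, with adjusted p-values of 0.00401 for Ube2q2, 0.00504 for Ube2v1, 0.00891 for Ube2e1, 0.0239 for Ube2n, 0.0435 for Ube2t and 0.0452 for Ube2c. In 6 genes that were not called (Ube2g1, Ube2j1, Ube2k, Ube2u, Ube2v2 and Ube2w) the difference turned from lower to higher in XX without XO1. The count of lower genes was 3 without XX2, and 4 without XX1, XX3 or XO3.

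Between XX and XY oocytes, which were littermates, only Ube2r2 was called, and it was lower in XX. This is 3.85% of the genes tested, beside 4.39% of all genes, and 0 genes were higher, beside 1.41%. With TMM 0 genes were called in either direction, beside 2.58% of all genes higher and 2.77% lower, and with DESeq2 0 as well. The median log2 fold change of the 26 genes was -0.12 with the ERCC factors and 0.03 with TMM. Samples did not overlap in 2 genes that were lower in XX (Ube2r2 and Ube2cbp; 7.69%) and in 0 that were higher, beside 11.7 and 4.15% of all genes.

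Between XY and XO oocytes, 3 genes were lower in XY (11.5%), namely Ube2d3, Ube2e1 and Ube2s, beside 8.24% of all genes, and 0 were higher, beside 1.69%. With TMM, 3 genes were higher and 1 was lower in XY, beside 5.39 and 3.68% of all genes, and with DESeq2 3 were higher and 2 lower. Samples did not overlap in 4 genes that were lower in XY (Ube2d3, Ube2e1, Ube2t and Ube2s; 15.4%) and in 2 that were higher (Ube2l3 and Ube2r2; 7.69%), beside 6.34 and 3.88% of all genes. With TMM-scaled CPM, Ube2d3, Ube2t and Ube2s overlapped, and all XY samples of Ube2f were above all XO samples. XO and XY samples of the same replicate number deviated together, which the main fit did not use. In the fit blocked by replicate number 7 genes were lower, beside 14.1% of all genes. These were Ube2d3, Ube2e1, Ube2e3, Ube2q2, Ube2s, Ube2t and Ube2v1. With the block and TMM 2 genes were lower, and the share of all genes is not given for that fit. Without XO1 and with no block the count was 8, beside 27.6% of all genes, and without XO3 or XY2 it was 1. It was 2 without XX2 or XY1. The adjusted p of the 26 genes was at least 0.485 with the ERCC factors and 0.192 with DESeq2. With limma and 2 sva variables Ube2f, Ube2l3 and Ube2d3 passed the adjustment, beside 767 of all 10993 genes. Without XO1 the adjusted p was 0.0244 for Ube2v1, 0.0258 for Ube2q2 and 0.0290 for Ube2e1. Thus 3 genes (11.5%) passed as lower in XY, beside 13.4% of all genes.

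**Figure D2:**
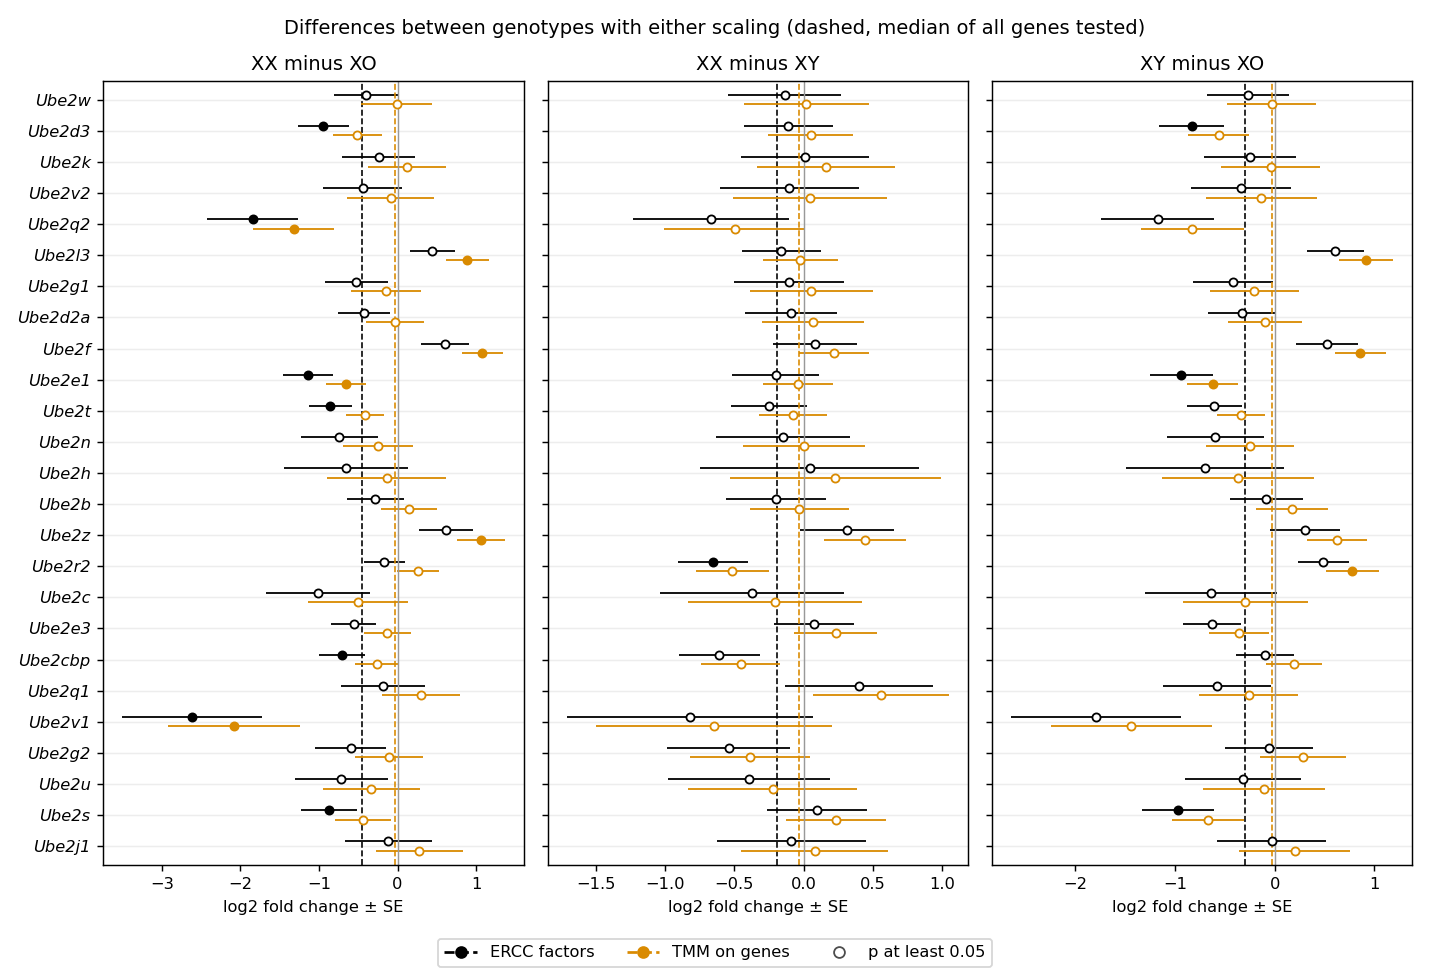
Log2 fold change with its SE for the Ube2 genes tested, in 3 contrasts, with the ERCC factors (black) and with TMM factors from the genes (orange). Filled symbols have an unadjusted p under 0.05, and dashed lines give the median of all genes tested. In XX minus XO the orange symbols lie to the right of the black ones, and Ube2e1, Ube2q2 and Ube2v1 are filled on the lower side with both scalings.

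The sequences before the start of a few of these genes are shown, since genes that differed in opposite directions between XX and XO oocytes can be compared by base composition. They come from RefSeq promoter entries (GRCm38.p6), written 5′ to 3′ on the strand of the gene, and cover up to 250 bases before the start, without bases that Gencode vM21 places in an exon of the gene. Such an entry was used for 26 of the 33 genes, and genes without one included Ube2d2a, Ube2e3, Ube2g2, Ube2o, Ube2v2 and Ube2w. Capitals mark matches on either strand to 5 motifs. The TATA box was searched as TATAAA. The CCAAT box was searched by the letters in its name. The GC box was searched as GGGCGG and the ETS site of that factor family as CCGGAAG. The cyclic AMP response element (CRE) was searched as TGACGTCA. The first pair, at chr14:18331860-18332094 and chr2:167632096-167632255 (both minus strand), belongs to genes that were lower in XX than in XO, and the second, at chr1:91250054-91250303 (plus strand) and chr11:96065389-96065614 (minus strand), to genes that were higher with TMM.
Ube2e1: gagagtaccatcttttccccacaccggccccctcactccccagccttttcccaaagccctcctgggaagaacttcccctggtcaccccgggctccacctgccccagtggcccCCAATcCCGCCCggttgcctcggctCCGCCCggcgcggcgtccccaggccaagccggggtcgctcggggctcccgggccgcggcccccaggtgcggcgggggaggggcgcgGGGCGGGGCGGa
Ube2v1: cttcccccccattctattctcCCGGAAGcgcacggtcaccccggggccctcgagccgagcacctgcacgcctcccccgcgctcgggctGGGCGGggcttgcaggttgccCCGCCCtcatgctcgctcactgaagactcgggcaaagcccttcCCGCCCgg
Ube2f: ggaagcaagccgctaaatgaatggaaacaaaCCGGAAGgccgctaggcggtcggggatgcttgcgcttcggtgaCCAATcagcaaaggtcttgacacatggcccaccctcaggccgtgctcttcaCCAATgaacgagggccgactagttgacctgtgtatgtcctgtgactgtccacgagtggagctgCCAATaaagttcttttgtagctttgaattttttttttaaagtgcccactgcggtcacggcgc
Ube2z: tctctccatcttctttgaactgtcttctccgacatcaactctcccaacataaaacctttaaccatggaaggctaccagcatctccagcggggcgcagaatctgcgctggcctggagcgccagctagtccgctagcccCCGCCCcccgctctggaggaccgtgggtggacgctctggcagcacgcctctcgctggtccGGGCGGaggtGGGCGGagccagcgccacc

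The stretch before Ube2e1 held 4 GC boxes, the stretches before Ube2v1 and Ube2z held 3 each, and that before Ube2f held 0 GC boxes and 3 CCAAT boxes. The G and C content was 75.7% before Ube2e1, 71.9% before Ube2v1, 63.7% before Ube2z and 52.8% before Ube2f. GC boxes thus stood before genes of both directions. Over the 37 windows of 250 bases of the 26 genes whose entries were used, 70.3% held a GC box, 21.6% an ETS site, 21.6% a CCAAT box, 8.11% a TATA box and 2.70% a CRE. In all 32851 promoter windows of that length the shares were 32.7, 6.91, 33.9, 12.4 and 1.55%. The median window held 69.6% G and C with 24 CpG in Ube2 genes and 52.4% with 6 CpG in all windows, and several of the Ube2 windows belong to the same gene.

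Of the Ube2d and Ube2e genes, whose enzymes serve many RING and HECT ligases, 4 of 6 were tested, and 2 were lower in XX than in XO oocytes with the ERCC factors. Ube2d3 (chr3:135438149-135468198) had 341, 304 and 293 normalized CPM in XX1, XX2 and XX3, 700.0, 431 and 673 in XO1, XO2 and XO3, and 415, 270.2 and 327 in XY1, XY2 and XY3. All XO samples were above all XX and all XY samples. In log2, the fold change was -0.94 ± 0.32 (SE, adjusted p = 0.214) for XX minus XO and -0.83 ± 0.32 (SE, adjusted p = 0.485) for XY minus XO. With TMM it was -0.51 ± 0.31 (SE, adjusted p = 0.546) and -0.56 ± 0.31 (SE, adjusted p = 0.613), and with the spike-in totals -0.01 for XX minus XO. The XX minus XO call was lost without XX2 (log2 fold change of -0.92) and without XX3 (-0.90), and with sva variables (-0.34). The XY minus XO call was lost without XY2 (log2 fold change of -0.70), XY3 (-0.81), XO3 (-0.75) or XX2 (-0.83).

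Ube2d2a encodes a nearly identical enzyme. It had 88.0, 81.6 and 82.3 normalized CPM in XX1, XX2 and XX3, 169.8, 76.5 and 91.5 in XO1, XO2 and XO3, and 103, 79.4 and 85.7 in XY1, XY2 and XY3. XO1 was the highest sample, and XO2 the lowest, so that the genotypes overlapped. Its log2 fold change for XX minus XO was -0.42 ± 0.33 (SE, adjusted p = 0.488), and without XO1 it was -0.00043 ± 0.25 (SE, adjusted p = 1.00). Ube2d1 had 22 UMIs in all. Ube2d3 held 77.0 to 80.4% of the UMIs of the 3 Ube2d genes in XX, XY and XO1 samples, and 84.7 and 87.8% in XO2 and XO3. Reads of such close paralogs can be divided between them by the alignment, and the share of each is therefore uncertain.

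Ube2e1 (chr14:18282722-18331859), whose promoter stretch with 4 GC boxes is shown above, encodes a relative of the UBE2D enzymes with a longer N terminus. It had 50.2, 50.1 and 38.4 normalized CPM in XX1, XX2 and XX3, 74.0, 89.4 and 142 in XO1, XO2 and XO3, and 57.2, 42.3 and 60.1 in XY1, XY2 and XY3. All XO samples were above all others, whereas XX and XY samples overlapped. The mean was 46.2 ± 6.79 (SD) in XX, 102 ± 35.5 in XO and 53.2 ± 9.52 in XY. XX minus XO gave a log2 fold change of -1.14 ± 0.32 (SE, adjusted p = 0.203), and -0.66 ± 0.25 (SE, adjusted p = 0.372) with TMM. For XY minus XO it was -0.93 ± 0.32 (SE, adjusted p = 0.485), and -0.62 ± 0.25 (SE, adjusted p = 0.530) with TMM. The XY minus XO call was lost without XO3 (log2 fold change of -0.62) and without XY2 (-0.79), while that of XX minus XO was kept without each of the 9 samples in turn. The XX minus XO call was lost with sva variables (log2 fold change of -0.32), limma and sva variables (-0.33) and spike-in totals (-0.37). Ube2e3 had a mean of 18.4 normalized CPM and Ube2e2 had 22 UMIs in all.

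The enzyme of K63 chains is encoded by Ube2n, and its partners without an active cysteine by Ube2v1 and Ube2v2. All 3 genes were tested, and Ube2v1 was lower in XX than in XO oocytes. Ube2v1 (chr2:167607638-167632095) had 2.49, 1.75 and 7.31 normalized CPM in XX1, XX2 and XX3, 3.11, 31.0 and 38.4 in XO1, XO2 and XO3, and 2.79, 5.53 and 12.1 in XY1, XY2 and XY3. XO2 and XO3 were far above the other samples, whereas XO1 was within the XX range. For XX minus XO the log2 fold change was -2.61 ± 0.89 (SE, adjusted p = 0.211), the largest of the 26 genes in size, and -2.08 ± 0.84 (SE, adjusted p = 0.378) with TMM. Without XO1 it was -3.12 ± 0.59 (SE, adjusted p = 0.00504), and the call was lost without XX1 (log2 fold change of -2.39), XX2 (-2.27) or XO3 (-2.11) and with the spike-in totals (-1.56). For XY minus XO it was -1.79 ± 0.85 (SE, adjusted p = 0.511) with all samples and -1.73 ± 0.53 (SE, adjusted p = 0.232) with the replicate block. The gene overlaps the read-through gene Gm20431 on the same strand, and the division of reads between them is uncertain.

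Ube2v2 (chr16:15552677-15594524) had 250.1, 283 and 172 normalized CPM in XX1, XX2 and XX3, 592, 182 and 186 in XO1, XO2 and XO3, and 334, 248 and 177 in XY1, XY2 and XY3. XO1 was highest and was followed by XY1, and the genotypes overlapped. Ube2v2 held 95.9 to 99.4% of the UMIs of Ube2v1 and Ube2v2 in XX, 99.5% in XO1, 85.4% in XO2 and 82.9% in XO3, and 93.6 to 99.2% in XY. XO2 and XO3 thus carried the largest shares of Ube2v1. Ube2n (chr10:95515145-95545657) had 41.0, 30.1 and 46.9 normalized CPM in XX1, XX2 and XX3, 23.3, 82.2 and 92.0 in XO1, XO2 and XO3, and 29.3, 42.0 and 59.2 in XY1, XY2 and XY3. XO1 was the lowest and XO2 and XO3 were the highest samples. Its log2 fold change for XX minus XO was -0.74 ± 0.49 (SE, adjusted p = 0.413), and without XO1 it was -1.14 ± 0.32 (SE, adjusted p = 0.0239).

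Ube2k, Ube2g1 and Ube2r2 encode enzymes that build K48 chains, the latter pair together with cullin ligases. Of these, Ube2r2 was called in 1 contrast with the ERCC factors and in another with TMM. Ube2r2 (chr4:41135743-41193380), a relative of Cdc34, had 18.2, 17.9 and 13.7 normalized CPM in XX1, XX2 and XX3, 18.6, 19.1 and 18.1 in XO1, XO2 and XO3, and 22.8, 28.0 and 27.5 in XY1, XY2 and XY3. All XY samples were above all XX and XO samples, which overlapped each other. XX minus XY gave a log2 fold change of -0.66 ± 0.25 (SE, adjusted p = 0.753), and -0.51 ± 0.26 (SE, adjusted p = 0.998) with TMM. For XY minus XO it was 0.49 ± 0.26 (SE, adjusted p = 0.530), and 0.78 ± 0.27 (SE, adjusted p = 0.505) with TMM, so that the call moved from the first contrast to the second. The XX minus XY call was lost without XX2 (log2 fold change of -0.71), XX3 (-0.53), XY2 (-0.60) or XY3 (-0.62).

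Ube2k (chr5:65537233-65598988) had 301, 254 and 220.0 normalized CPM in XX1, XX2 and XX3, 533, 176 and 206 in XO1, XO2 and XO3, and 363, 210.3 and 197 in XY1, XY2 and XY3. Ube2g1 (chr11:72607283-72686481) had 103, 111 and 93.5 normalized CPM in XX1, XX2 and XX3, 249, 94.1 and 100.5 in XO1, XO2 and XO3, and 138, 93.8 and 99.9 in XY1, XY2 and XY3. In both, XO1 was the highest sample and XY1 the next, and XO2 and XO3 lay below the XX range for Ube2k and within it for Ube2g1. The log2 fold changes for XX minus XO were -0.24 ± 0.46 (SE, adjusted p = 0.790) for Ube2k and -0.53 ± 0.40 (SE, adjusted p = 0.474) for Ube2g1, and without XO1 they turned to 0.43 ± 0.33 (SE, adjusted p = 0.380) and 0.08 ± 0.27 (SE, adjusted p = 0.871). Ube2g1 held 85.2 to 96.4% of the UMIs that it shared with Ube2g2.

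**Figure D3:**
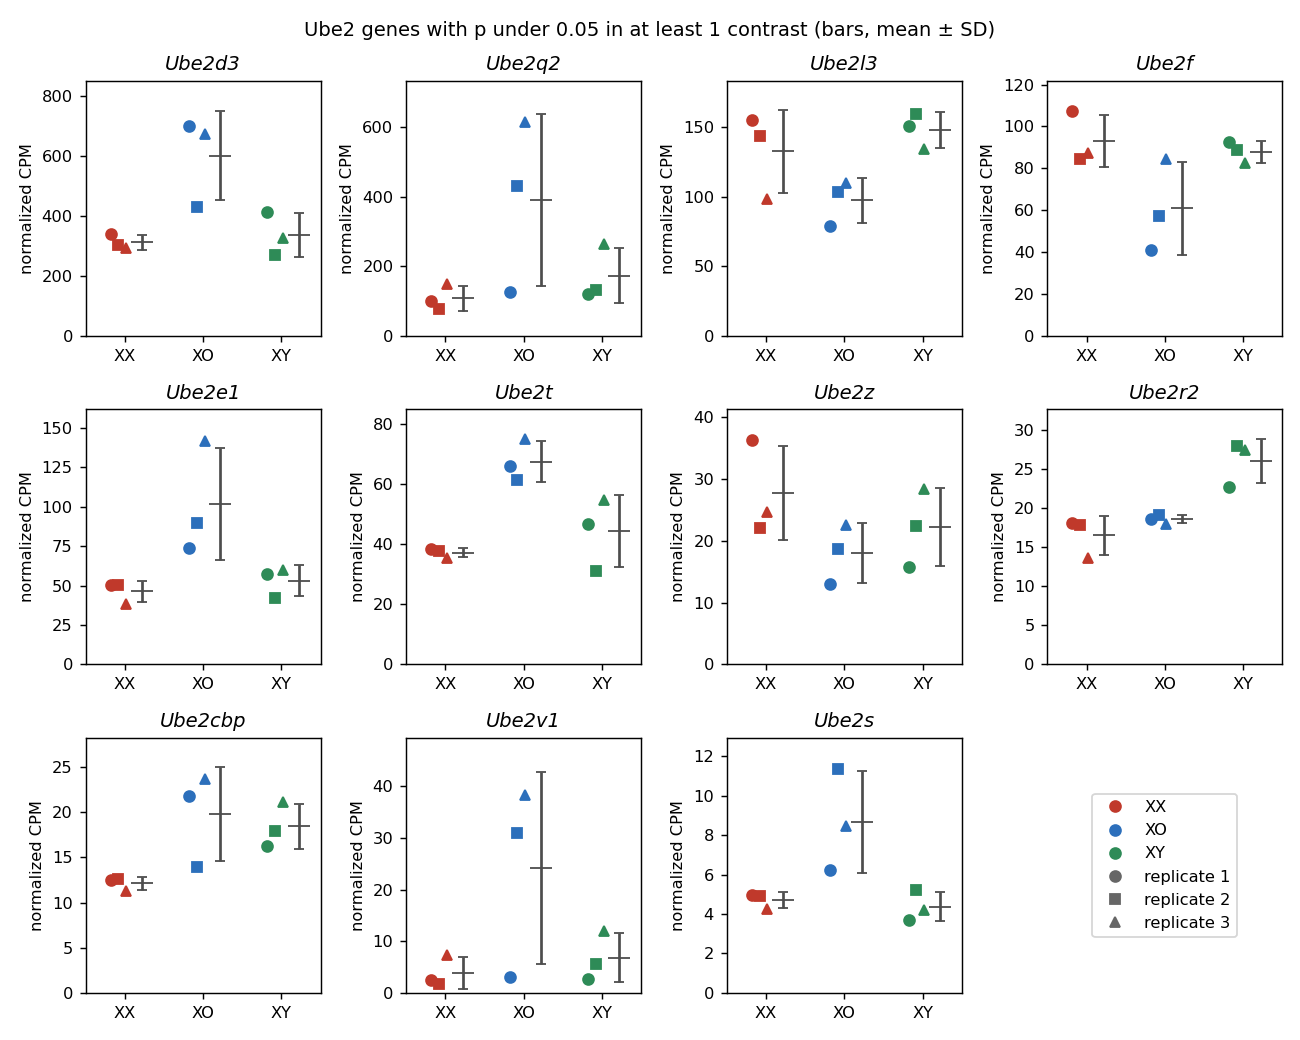
Normalized CPM of the 11 Ube2 genes with an unadjusted p under 0.05 in at least 1 contrast with the ERCC factors or with TMM, 1 symbol per sample, with shapes for replicate numbers and bars for the mean ± SD of 3 samples. The 3 XO samples of Ube2d3, Ube2e1, Ube2t and Ube2s lie above all XX and XY samples, whereas those of Ube2q2 and Ube2v1 are split between XO1 and the other two.

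Ube2c and Ube2s encode the enzymes of the APC/C, of which the first starts and the second extends the chains on cyclin B and securin. Ube2s (chr7:4794546-4812590) had low levels, with 4.99, 4.90 and 4.27 normalized CPM in XX1, XX2 and XX3, 6.21, 11.4 and 8.47 in XO1, XO2 and XO3, and 3.72, 5.21 and 4.23 in XY1, XY2 and XY3. All XO samples were above all others. In log2, the fold change was -0.88 ± 0.36 (SE, adjusted p = 0.251) for XX minus XO and -0.97 ± 0.36 (SE, adjusted p = 0.485) for XY minus XO. With TMM it was -0.43 ± 0.36 (SE, adjusted p = 0.674) and -0.67 ± 0.36 (SE, adjusted p = 0.610). These values rested on 129 UMIs in all. The first call was lost without XX1 (log2 fold change of -0.92), XX2 (-0.90), XX3 (-0.81), XO2 (-0.63), XO3 (-0.89) or XY3 (-0.88). The second was lost without XO2 (log2 fold change of -0.73), XY1 (-0.88) or XY3 (-0.94).

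Ube2c (chr2:164769898-164778822) had 11.8, 11.2 and 18.0 normalized CPM in XX1, XX2 and XX3, 6.73, 36.7 and 39.5 in XO1, XO2 and XO3, and 6.51, 16.0 and 30.2 in XY1, XY2 and XY3. XO1 and XY1 were the lowest samples, and XO2 and XO3 the highest. XX minus XO gave a log2 fold change of -1.01 ± 0.67 (SE, adjusted p = 0.415), and without XO1 it was -1.47 ± 0.48 (SE, adjusted p = 0.0452).

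The enzymes of the ubiquitin-like modifier NEDD8 are encoded by Ube2m and Ube2f, of which the latter acts on cullin-5. Ube2m was at the limit of detection, with 1 UMI in XX2, 1 in XO3, 1 in XY2 and 0 in the other 6 samples, and it was not tested.

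Ube2f (chr1:91250304-91290337), whose promoter stretch with 3 CCAAT boxes is shown above, had 107, 84.4 and 87.1 normalized CPM in XX1, XX2 and XX3, 40.9, 57.4 and 84.7 in XO1, XO2 and XO3, and 92.5, 88.5 and 82.4 in XY1, XY2 and XY3. XO1 and XO2 were below all XX and XY samples, and XO3 was within their range. In log2, the fold change was 0.61 ± 0.31 (SE, adjusted p = 0.314) for XX minus XO and 0.53 ± 0.31 (SE, adjusted p = 0.556) for XY minus XO. With TMM it was 1.08 ± 0.26 (SE, adjusted p = 0.236) and 0.86 ± 0.26 (SE, adjusted p = 0.491), and Ube2f was called higher in XX and in XY than in XO. With the ERCC factors it was called without XO3, with a log2 fold change of 0.92 for XX minus XO and 0.84 for XY minus XO, whereas without XO1 these were 0.39 and 0.31 and it was not called.

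Ube2l3, Ube2z and Ube2h encode enzymes with particular partners, namely HECT and RBR ligases, the second ubiquitin E1 (UBA6) and the CTLH ligase. Ube2l3 (chr16:17152013-17202649) had 155, 144 and 98.7 normalized CPM in XX1, XX2 and XX3, 79.2, 103 and 109.5 in XO1, XO2 and XO3, and 151, 159.5 and 134 in XY1, XY2 and XY3. All XY samples were above all XO samples, while XX3 was within the XO range. Its log2 fold change for XX minus XO was 0.44 ± 0.28 (SE, adjusted p = 0.402), and 0.89 ± 0.27 (SE, adjusted p = 0.307) with TMM. For XY minus XO it was 0.61 ± 0.29 (SE, adjusted p = 0.511), and 0.92 ± 0.27 (SE, adjusted p = 0.491) with TMM. Ube2l3 was thus higher in XX and XY than in XO with TMM, and did not pass with the ERCC factors.

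Ube2z (chr11:96047432-96065388) had 36.3, 22.1 and 24.7 normalized CPM in XX1, XX2 and XX3, 12.9, 18.6 and 22.6 in XO1, XO2 and XO3, and 15.8, 22.5 and 28.4 in XY1, XY2 and XY3. XO1 was the lowest and XX1 the highest sample, and the genotypes overlapped in normalized CPM. In TMM-scaled CPM all XX samples (27.0 to 37.8) were above all XO samples (12.4 to 16.4). XX minus XO gave a log2 fold change of 0.62 ± 0.35 (SE, adjusted p = 0.350), and 1.06 ± 0.30 (SE, adjusted p = 0.268) with TMM, with which it was called higher in XX. Ube2h (chr6:30211289-30304539) had 26.7, 21.0 and 57.3 normalized CPM in XX1, XX2 and XX3, 10.9, 76.5 and 78.5 in XO1, XO2 and XO3, and 10.7, 24.1 and 66.7 in XY1, XY2 and XY3. XO1 and XY1 were the lowest samples, and the log2 fold change for XX minus XO was -0.66 ± 0.79 (SE, adjusted p = 0.659), and without XO1 it was -1.14 ± 0.60 (SE, adjusted p = 0.198).

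Ube2b encodes a RAD6 enzyme that works on PCNA and on histone H2B, and Ube2t the enzyme of the Fanconi anaemia ligase in DNA repair. Ube2t (chr1:134962565-134974162) had 38.5, 37.8 and 35.6 normalized CPM in XX1, XX2 and XX3, 66.3, 61.5 and 75.1 in XO1, XO2 and XO3, and 46.9, 31.3 and 54.9 in XY1, XY2 and XY3. All XO samples were above all XX and XY samples, and XX samples differed by less than 3 normalized CPM. For XX minus XO the log2 fold change was -0.86 ± 0.28 (SE, adjusted p = 0.203), and -0.41 ± 0.24 (SE, adjusted p = 0.537) with TMM, and it turned to 0.02 with the spike-in totals. The call with the ERCC factors was kept without each of the 9 samples in turn, but it was lost with sva variables (log2 fold change of -0.34) and with limma and sva variables (-0.33). Ube2b (chr11:51985497-52000762) had 27.4, 24.2 and 26.5 normalized CPM in XX1, XX2 and XX3, 40.9, 19.6 and 34.4 in XO1, XO2 and XO3, and 43.2, 20.5 and 26.3 in XY1, XY2 and XY3. XO1 and XY1 were the highest samples, and its log2 fold change for XX minus XO was -0.28 ± 0.37 (SE, adjusted p = 0.684), and without XO1 it was -0.05 ± 0.37 (SE, adjusted p = 0.940). Its X-linked homolog Ube2a had 41.3, 37.8 and 31.4 normalized CPM in XX1, XX2 and XX3, 39.9, 12.9 and 13.0 in XO1, XO2 and XO3, and 28.8, 15.3 and 12.7 in XY1, XY2 and XY3. XX samples and XO1 were the highest, and the log2 fold change was 0.74 ± 0.49 (SE, adjusted p = 0.413) for XX minus XO and 0.97 ± 0.49 (SE, adjusted p = 0.946) for XX minus XY. Without XO1 they were 1.50 ± 0.39 (SE, adjusted p = 0.0169) and 0.98 ± 0.32 (SE, adjusted p = 0.272).

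Ube2w, whose enzyme attaches ubiquitin to N termini, and the Ube2q genes, which encode long E2 enzymes, include the most abundant transcripts. Ube2w (chr1:16540790-16619489) had 468, 537 and 366 normalized CPM in XX1, XX2 and XX3, 923, 428 and 463 in XO1, XO2 and XO3, and 687, 461 and 361 in XY1, XY2 and XY3. XO1 and XY1 were the highest samples, and the other XO and XY samples overlapped with XX. The log2 fold change for XX minus XO was -0.40 ± 0.41 (SE, adjusted p = 0.597), and without XO1 it was 0.04 ± 0.34 (SE, adjusted p = 0.952). Ube2q2 (chr9:55148854-55207529) had 99.7, 78.1 and 149 normalized CPM in XX1, XX2 and XX3, 125, 432 and 614 in XO1, XO2 and XO3, and 122, 133 and 264 in XY1, XY2 and XY3. XO2 and XO3 were above all other samples, whereas XO1 was within the XX range. The log2 fold change for XX minus XO was -1.84 ± 0.58 (SE, adjusted p = 0.203), and -1.32 ± 0.52 (SE, adjusted p = 0.373) with TMM. It was called lower in XX without each of the 9 samples in turn, and without XO1 it was -2.26 ± 0.40 (SE, adjusted p = 0.00401). With the spike-in totals it was -0.87 and was not called. For XY minus XO it was -1.17 ± 0.57 (SE, adjusted p = 0.513), and -1.08 ± 0.41 (SE, adjusted p = 0.255) with the replicate block. Ube2q1 was at a mean of 12.1 normalized CPM and Ube2ql1 had 2 UMIs, both in XX samples.

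The other 7 genes reached means of 1.95 to 16.8 normalized CPM, and 4 of them were tested. They include Ube2g2, Ube2j1 and Ube2j2, whose enzymes serve the degradation of proteins from the endoplasmic reticulum, the large enzyme gene Ube2o, Ube2u and its antisense RNA, and Ube2cbp. Ube2cbp (chr9:86307306-86464950) had 12.5, 12.6 and 11.3 normalized CPM in XX1, XX2 and XX3, 21.7, 14.0 and 23.7 in XO1, XO2 and XO3, and 16.3, 17.9 and 21.1 in XY1, XY2 and XY3. All XX samples were below all XO and XY samples, which overlapped. In log2, the fold change was -0.71 ± 0.30 (SE, adjusted p = 0.260) for XX minus XO and -0.61 ± 0.29 (SE, adjusted p = 0.918) for XX minus XY, of which only the first passed. For XX minus XO it was -0.26 ± 0.28 (SE, adjusted p = 0.763) with TMM and turned to 0.18 with the spike-in totals. The call was lost without XX1 (log2 fold change of -0.73), XX2 (-0.74), XX3 (-0.66), XO1 (-0.63), XO3 (-0.56), XY2 (-0.71) or XY3 (-0.71), and with DESeq2 (-0.39) or sva variables (-0.41).

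In XO and XY oocytes, the levels of many Ube2 genes went with the replicate number. In 10 of the 26 genes tested (38.5%), replicate 1 was above replicates 2 and 3 in both XO and XY, beside 30.6% of all genes. These were Ube2b, Ube2d2a, Ube2d3, Ube2e3, Ube2g1, Ube2j1, Ube2k, Ube2u, Ube2v2 and Ube2w. In 9 genes (34.6%), replicate 1 was below replicates 2 and 3 in both, beside 35.1% of all genes, among them Ube2c, Ube2h, Ube2n, Ube2q1, Ube2q2, Ube2s, Ube2v1 and Ube2z. Both shares were near those of all genes. With TMM the counts were 10 and 9 as well, beside 31.2 and 37.8% of all genes. Thus several abundant transcripts (Ube2w, Ube2k and Ube2v2) and those of Ube2h, Ube2c and Ube2v1 lay at opposite ends in XO1.

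**Figure D4:**
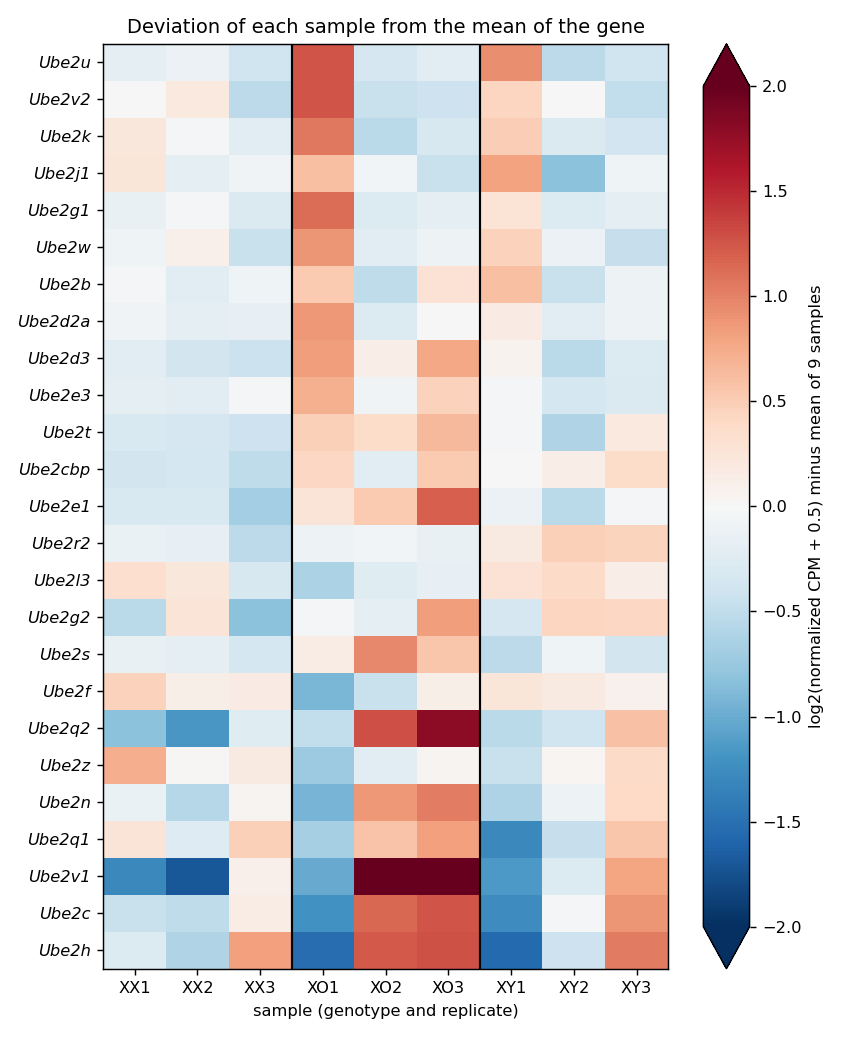
Deviation of each sample from the mean of the gene over 9 samples, in log2(normalized CPM + 0.5), for the Ube2 genes tested, with samples in columns and genes ordered by the sum of the XO1 and XY1 deviations. Red stands for a level above and blue for a level below the mean, and the colours end at 2 in either direction. XO1 and XY1 are red in the upper rows (Ube2u, Ube2v2, Ube2k) and blue in the lower rows (Ube2h, Ube2c, Ube2v1), where XO2, XO3 and XY3 are red.

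The cascade before and after the E2 enzymes was read from lists of E1 genes, other genes with an E2 fold, ubiquitin and its relatives, and E3 partners. Of the 9 E1 genes tested, 2 were lower in XX than in XO, 1 was lower in XX than in XY, and 2 were lower and 1 was higher in XY than in XO. The gene lower in XX than in XY and higher in XY than in XO was Uba1y, with either scaling and without XO1. It lies on the Y chromosome, so that genotype fixed these calls in advance. Among all genes 16.7% were lower in XX than in XO, 4.39% lower in XX than in XY, and 8.24% lower and 1.69% higher in XY than in XO. With TMM the counts were 1, 1, 1 and 1, beside 6.02, 2.77, 3.68 and 5.39% of all genes. Without XO1 they were 1, 1, 3 and 1, beside 34.2 and 27.6% of all genes lower in XX and in XY than in XO. Uba1, the X-linked E1 of ubiquitin, had 18.9, 13.7 and 29.2 normalized CPM in XX1, XX2 and XX3, 3.62, 33.1 and 34.4 in XO1, XO2 and XO3, and 8.37, 9.77 and 24.8 in XY1, XY2 and XY3. XO1 was the lowest and XO2 and XO3 the highest samples. Its Y-linked homolog Uba1y had 0, 0 and 0 normalized CPM in XX1, XX2 and XX3, 0, 0 and 0 in XO1, XO2 and XO3, and 14.4, 17.3 and 23.5 in XY1, XY2 and XY3. It was thus detected in all 3 XY samples, and 0 UMIs in XX and in XO allow up to 3 UMIs per genotype, or 0.337 and 0.533 normalized CPM, by counting error only. Uba6, which charges the enzyme of Ube2z, had 44.5, 51.1 and 47.5 normalized CPM in XX1, XX2 and XX3, 73.0, 61.0 and 58.1 in XO1, XO2 and XO3, and 40.4, 39.4 and 39.8 in XY1, XY2 and XY3. All XY samples were below all others, and the log2 fold change for XY minus XO was -0.68 ± 0.23 (SE, adjusted p = 0.485), and -0.41 ± 0.27 (SE, adjusted p = 0.666) with TMM.

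Atg7, the E1 of autophagy, had 1.07, 2.80 and 3.05 normalized CPM in XX1, XX2 and XX3, 2.59, 11.9 and 15.8 in XO1, XO2 and XO3, and 2.32, 1.95 and 3.92 in XY1, XY2 and XY3. XO2 and XO3 were the highest samples. The log2 fold change was -2.09 ± 0.66 (SE, adjusted p = 0.203) for XX minus XO and -1.85 ± 0.65 (SE, adjusted p = 0.485) for XY minus XO, and with TMM -1.57 ± 0.62 (SE, adjusted p = 0.373) and -1.51 ± 0.61 (SE, adjusted p = 0.530). Nae1, a subunit of the NEDD8 E1, had 98.7, 100.1 and 95.4 normalized CPM in XX1, XX2 and XX3, 164, 140.1 and 137 in XO1, XO2 and XO3, and 143, 116 and 115 in XY1, XY2 and XY3. All XX samples were below all others, and the log2 fold change for XX minus XO was -0.58 ± 0.25 (SE, adjusted p = 0.264), -0.16 ± 0.27 (SE, adjusted p = 0.868) with TMM and -0.50 ± 0.25 (SE, adjusted p = 0.168) without XO1, with which it was not called. Of the 7 other genes with an E2 fold tested, 0 were called in any contrast with the ERCC factors. Without XO1, 2 were lower and 1 was higher in XX than in XO, beside 34.2 and 2.77% of all genes. With TMM or DESeq2 1 was higher in XX than in XO, namely Aktip, beside 5.90% of all genes with TMM. Cdc34, the E2 of SCF ligases, had 9 UMIs in all and was not tested.

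Of the 7 genes of ubiquitin and its relatives tested, 5 were lower in XX than in XO and 4 were lower in XY than in XO, or 3 and 3 with TMM, beside 16.7 and 8.24% of all genes, or 6.02 and 3.68% with TMM, and 0 were called between XX and XY with either scaling or with DESeq2. Without XO1, 6 were lower in XX and 5 lower in XY than in XO, beside 34.2 and 27.6% of all genes. Ubb, a polyubiquitin gene, had 144, 149 and 273 normalized CPM in XX1, XX2 and XX3, 58.0, 3153 and 7009 in XO1, XO2 and XO3, and 114, 239 and 458 in XY1, XY2 and XY3. XO1 was the lowest sample and XO2 and XO3 the highest, so that XO enclosed both other genotypes. For XX minus XO the log2 fold change was -4.17 ± 1.27 (SE, adjusted p = 0.203), and -3.58 ± 1.21 (SE, adjusted p = 0.331) with TMM. For XY minus XO it was -3.66 ± 1.24 (SE, adjusted p = 0.485). The oocyte markers Zp1, Gdf9 and Nobox were also higher in XO2 and XO3 than in XO1, with Gdf9 at 252, 272 and 319 normalized CPM in XX1, XX2 and XX3, 339, 869 and 2432 in XO1, XO2 and XO3, and 234, 264 and 350.2 in XY1, XY2 and XY3. The paper reports no difference in Gdf9 among the genotypes at this size. Whether the state of the oocytes in these pools had a part in the differences found here was not tested.

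**Figure D5:**
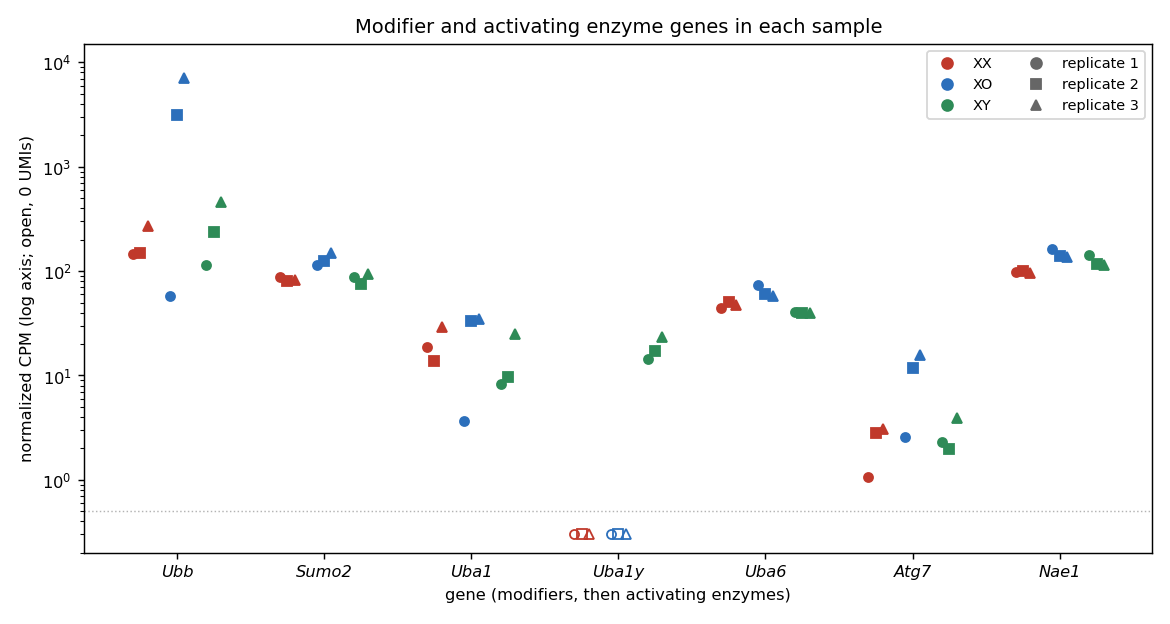
Normalized CPM on a log axis of the modifier genes Ubb and Sumo2 and of the E1 genes Uba1, Uba1y, Uba6, Atg7 and Nae1, with 1 symbol per sample, colours for genotypes and shapes for replicate numbers. Open symbols below the dotted line stand for 0 UMIs. Ubb is highest in XO2 and XO3 and lowest in XO1, and Uba1y is detected in XY samples only.

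Of the 19 E3 partners tested, 5 were lower in XX than in XO (among them Cdc20, Rbx1, Rnf40 and Rnf7) with the ERCC factors (26.3%, beside 16.7% of all genes) and 0 with TMM (beside 6.02%), and 0 were called between XX and XY with either scaling or with DESeq2. With DESeq2, 2 were lower in XX than in XO, and without XO1 7 were (36.8%, beside 34.2% of all genes). Between XY and XO, 1 was higher and 0 were lower in XY, beside 1.69 and 8.24% of all genes. Without XO1, 2 were higher and 6 lower in XY, beside 27.6% of all genes lower. The share of all genes higher is not given for that fit. Cdc20, an activator of the APC/C, had a log2 fold change of -3.25 ± 1.27 (SE, adjusted p = 0.242) for XX minus XO. It rested on 107 UMIs in all, with 0.712, 0 and 2.74 normalized CPM in XX1, XX2 and XX3. XO1, XO2 and XO3 had 1.55, 12.4 and 21.5, so that XO1 was within the XX range. For Rbx1, the RING protein of cullin ligases, the log2 fold change was -0.76 ± 0.31 (SE, adjusted p = 0.253). Anapc11, the RING subunit of the APC/C, was higher in XY than in XO. It had 11.4, 8.05 and 5.79 normalized CPM in XX1, XX2 and XX3, 4.14, 8.79 and 5.08 in XO1, XO2 and XO3, and 8.83, 19.5 and 15.7 in XY1, XY2 and XY3. All XY samples were above all XO samples, although XY1 and XO2 were close. The log2 fold change for XY minus XO was 1.29 ± 0.45 (SE, adjusted p = 0.485), and 1.60 ± 0.45 (SE, adjusted p = 0.491) with TMM.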

How the data were processed

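RNA was measured in 9 samples of pooled oocytes, 3 for each of the genotypes XX, XO and XY, which were grouped by their labels. The authors used HISAT2 to place the stranded, paired Smart-seq3 reads on GRCm38 and on Gencode transcripts, and the tool versions are not given in the sources used here. The authors deposited UMI counts of 28052 genes and 79 ERCC spike-ins, and 1 further entry named no gene and was left out. A second deposited matrix of 28051 genes holds normalized CPM, a signal that equals the counts times 1 constant per sample. Each constant is that of CPM over a library size of gene UMIs times a scaling factor, and these factors equal TMM factors computed here on the spike-in counts (largest difference 1.1e-15). The last deposited matrix is on a log2 scale after the authors removed batch effects by regression, and it was used here only to find the genes. Other than these, 0 columns of sample values were left unused. The unnumbered XO column was read as XO1 from the label of that sample. The numbering of XO samples, and with it the replicate block and what is said of XO1, rests on this reading.

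UMI counts were tested in R 4.3.3 with edgeR 4.0.16 (quasi-likelihood F test, two-sided, filterByExpr, ERCC factors, 1 mean per genotype, all 9 samples), which left 10993 genes, and p-values were adjusted by Benjamini-Hochberg over these. The alternatives were TMM on genes, scaling to spike-in totals, no filter, a replicate block, 2 sva variables (sva 3.50.0), DESeq2 1.42.0, limma 3.58.1 on log2(normalized CPM + 0.5) with the sva variables, and leaving out samples. Samples of the same replicate number were checked for shared deviations from their group means. The correlations were 0.818, 0.272 and 0.766 between XO and XY, 0.450, -0.427 and 0.665 between XX and XO, and 0.416, -0.0581 and 0.711 between XX and XY. XO and XY thus deviated together by replicate number, and only the alternatives with a replicate block took this into account. The main tests, XY minus XO included, used no block and no pairing. The labels do not say what the number marks. Nor do they say that pools came from separate females, so that p-values measure the spread between these samples.

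Depth was 2130145 to 3157338 gene UMIs per sample, and limits for 0 UMIs (3 UMIs per genotype) cover counting error only. Gene positions are those of the deposited files (GRCm38), and all 33 identifiers were found in Gencode vM21, 31 of them with the same coordinates. The genes and lists were chosen with earlier results of these data known. Values in every sample are given for the 10 genes with the highest mean level, for each gene called in at least 1 contrast with the ERCC factors or TMM, and for genes with known roles in oocytes or cell division. Of the other lists, up to 3 called genes per list and contrast are named, beside Uba1, Uba1y, Ube2a and Cdc34. Some genes that these rules select count in the totals but are not reported here.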

Additional observations from a re-analysis of the deposited data

How the results depend on the processing

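The number of Ube2 genes called depended on the scaling and on single libraries, and the cause was not tested. Shares of all genes stand above for the ERCC factors, for TMM, and in part for the replicate block and the ERCC factors without XO1. For the other fits they are not given. A count in those fits cannot be told apart from a shift of all genes. Genes higher in XX than in XO (0 with the ERCC factors) numbered 3 with TMM, DESeq2, TMM with the replicate block or sva variables, 4 with limma and sva variables, 7 with TMM without XO1, and 0 to 1 when single samples were left out. Those lower in XX than in XO (7) numbered 3 with TMM, TMM with the replicate block, either fit with sva variables or TMM without XO1, 0 with spike-in totals or at an adjusted p under 0.05, and 3 to 9 without single samples (4 without XX1, XX3 or XO3, and 3 without XX2). Those lower in XX than in XY (1) numbered 0 with TMM, spike-in totals, DESeq2, no filter, TMM with the replicate block, TMM without XO1 or at an adjusted p under 0.05, 2 with either fit with sva variables, 4 without XO1 and XY1 together, and 0 to 1 without single samples. Those higher in XY than in XO (0) numbered 3 with TMM, DESeq2, TMM with the replicate block or sva variables, 2 with limma and sva variables, 5 with TMM without XO1, and 0 to 1 without single samples. Those lower in XY than in XO (3) numbered 1 with TMM, 0 with spike-in totals or at an adjusted p under 0.05, 7 with the replicate block or without XO1 and XY1 together, 2 with the replicate block and TMM, 8 with either fit with sva variables, and 1 to 8 without single samples (8 without XO1, and 1 without XO3 or XY2). The replicate block left the counts of XX against XO at 0 and 7 and those of XX against XY at 0 and 1. With spike-in totals, the log2 fold change of XX minus XO turned to 0.18 for Ube2cbp and to 0.0174 for Ube2t. Over 17 pairs of a gene and a contrast and all alternatives, 323 values were computed, of which 203 kept the direction and the side of the threshold, 36 passed newly, 82 no longer passed and 2 reversed. The ratio of the summed Ube2 level to XX was 1.50 for XO and 1.10 for XY in normalized CPM. As a share of gene UMIs it was 1.01 and 0.997, with XO1 included. TMM without XO1 was chosen after seeing the data. With 3 samples per genotype, genes of few UMIs such as Ube2m, Ube2d1 and Ube2e2 could not be tested, and differences in them were not detectable at this depth.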

Other observations

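Ube2d-ps, a pseudogene of the Ube2d genes, had a mean level of 17.8 ± 3.86 in XX samples, 13.2 ± 9.22 in XO samples and 17.5 ± 5.29 in XY samples (normalized CPM, SD, n = 3 each), with XO1 the lowest sample at 4.14. Ube2n-ps1 had a mean level of 1.92 ± 0.804 in XX samples, 2.65 ± 0.849 in XO samples and 3.25 ± 0.986 in XY samples (normalized CPM, SD, n = 3 each). How the alignment divided reads between these pseudogenes and their parent genes was not tested. The X-linked Ube2dnl1 had 6 UMIs in all.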
